A study of Rattus norvegicus with 64 samples.

Results

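The lungs described here came from 22 male Sprague-Dawley rats (outbred) that had been given filtered air and no dust. They are 22 of the 64 lung RNA libraries of a study of dust from the sand used in hydraulic fracturing, and they were chosen by label alone: 11 air rats killed 1 day after the last exposure session and 11 air rats killed at day 7. They belong to a pair of separate studies, each the control arm of a dust concentration. The 10 mg/m3 study gave 5 air rats at each day, and the 30 mg/m3 study gave 6 at each day. All of these rats, the dust-exposed ones included, spent 6 hours daily over 4 days in an inhalation chamber that takes the whole body, so day 1 and day 7 count from the end of that handling. The rats weighed about 200 to 250 g, and their age is not given in the sources used here. Different rats were killed at each day, and each lung was measured once. A piece of lung was used, depleted of ribosomal RNA and sequenced with a kit that keeps the strand. The comparison asks how lung transcript levels differed between these days in rats that met no dust. No source used here gives the dates of killing.

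Male rats of this weight are as a rule still growing, and their lungs grow with the chest by adding cells and matrix. Type I and type III interferons are antiviral signals. Their receptors activate transcription factors, which bind an interferon-stimulated response element in the promoters of target genes, and lung cells keep a low level of these targets without infection. Changes in cell cycle, collagen, imprinted and other growth genes, interferon targets, RNA processing, red cell and lung cell markers were each read from a list of genes.

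The 22 libraries held 5559459 to 11432873 counts. Total counts at day 7 and day 1 differed by a mean of -10980 counts (exact two-sided permutation test within study, p = 0.986). Rats 51 and 53, both at day 1 of the 30 mg/m3 study, had 21889 and 22077 genes with a count, against 18794 to 19495 in the other 20 libraries. Mitochondrial ribosomal RNA, the residue that the depletion step leaves, took 0.0961% to 4.434% of counts and was highest in rats 21 and 37. Its log2 share was 1.455 higher at day 7 (exact two-sided permutation test within study, p = 0.0241, and 0.0723 after Benjamini-Hochberg adjustment over 3 library measures). Lung markers were present in every library. Sftpc, the surfactant protein of alveolar type 2 cells, lay at 6613 to 13940 CPM (counts scaled to a common library total) in all 22 libraries, and Ager of alveolar type 1 cells at 1312 to 2438 CPM.

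Across 15375 genes with enough counts, 510 differed between day 7 and day 1 with study as a block (edgeR's quasi-likelihood test, Benjamini-Hochberg adjusted p under 0.05), which is 3.32% of genes. Of these, 324 were higher at day 7 (2.11%) and 186 were lower (1.21%). At an unadjusted p under 0.05 there were 2977 of the 15375. The changes were small. The median size among the 510 was 0.374 on the log2 scale, 356 were under 0.5 and 27 were over 1. In the separate estimates of each study, all 510 had the same sign in both. The risers had a median log2 change of 0.60 at 10 mg/m3 and 0.316 at 30 mg/m3, and the fallers -0.327 and -0.247. Since the studies together made these calls, the shared sign is a description. Symbols that are only locus codes made up 34.9% of the risers and 8.06% of the fallers, against 14.4% of the genes tested. A total of 190 of the 510 passed in every one of 22 fits that each left out 1 library. The count itself ran from 218 without rat 18 to 1075 without rat 17, and leaving out rats 51 and 53 gave 1252.

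**Figure D1:**
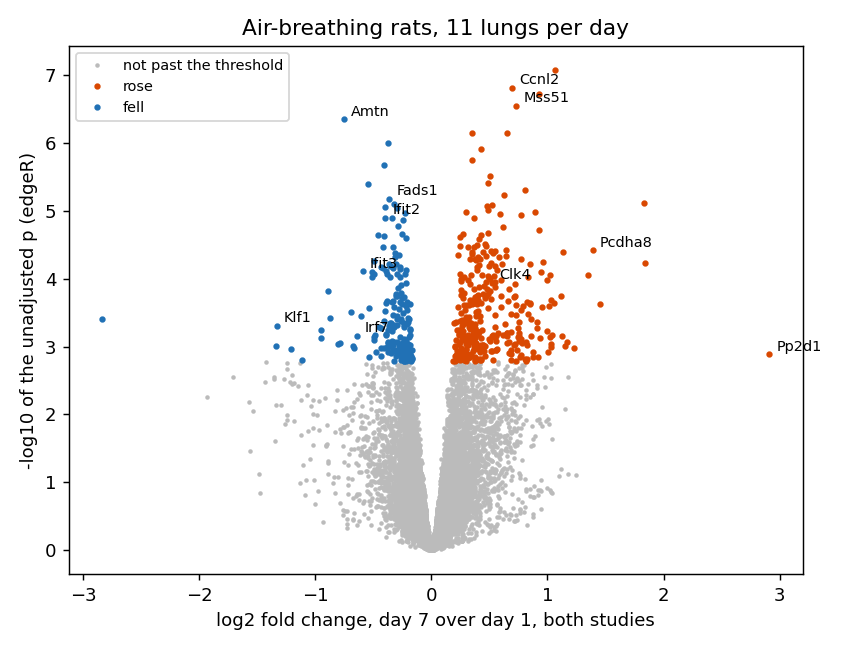
Each point is 1 of 15375 genes, with the log2 fold change of day 7 over day 1 in air-breathing rats of both studies on the x axis and the -log10 of the unadjusted p from edgeR on the y axis. The 324 genes that rose and 186 that fell are coloured, and most lie within 0.5 of 0 on the log2 scale.

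Fads1, the delta-5 desaturase that makes arachidonic and eicosapentaenoic acid, was lower at day 7 in every rat of both studies. In the 10 mg/m3 study the day 1 rats had 301.4, 242.9, 221.5, 256.4 and 249.3 CPM and the day 7 rats 199.2, 212.0, 145.1, 191.2 and 188.5 CPM. The 6 day 1 rats of the 30 mg/m3 study ran from 221.1 to 275.7 CPM and the day 7 rats from 188.2 to 219.4 CPM. Fads1 was the only gene of 15375 (0.0065%) whose 11 day 7 values and 11 day 1 values did not overlap in the direction of a fall, and no gene did so in the direction of a rise. The log2 fold change of Fads1 was -0.36, with an SE of 0.0636 (adjusted p = 0.00595, edgeR). At day 27 the air rats had 173.9 to 233.4 CPM, overlapping both earlier days.

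The interferon response genes were lower at day 7. Of 28 members tested, 10 fell and none rose (1.21% of all genes fell), and all 28 had a log2 change below 0, against 51.3% of all genes tested. Their median was -0.372, and -0.0049 over all genes. Promoters of the members that fell are shown for 4 of them, because they hold the element that interferon-activated factors bind. They run from 250 bases before to 50 after the start, on the gene's strand, from RefSeq on build GRCr8, which is not the build of the counts (Rnor_6.0). Irf7 covers chr1:205799974-205800273 (minus strand), Ifit3 chr1:241527076-241527375 (plus), Oas1b chr12:41395803-41396102 (minus) and Gbp5 chr2:233910749-233911048 (plus). Capitals mark each match to GAAA, any 2 bases and GAAA again, which reads TTTC, any 2 bases and TTTC on the other strand.
Irf7: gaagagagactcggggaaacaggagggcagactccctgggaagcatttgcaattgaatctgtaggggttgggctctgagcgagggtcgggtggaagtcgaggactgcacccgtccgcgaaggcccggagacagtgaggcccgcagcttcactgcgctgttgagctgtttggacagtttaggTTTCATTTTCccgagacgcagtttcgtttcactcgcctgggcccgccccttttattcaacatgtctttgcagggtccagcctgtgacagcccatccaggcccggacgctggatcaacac
Ifit3: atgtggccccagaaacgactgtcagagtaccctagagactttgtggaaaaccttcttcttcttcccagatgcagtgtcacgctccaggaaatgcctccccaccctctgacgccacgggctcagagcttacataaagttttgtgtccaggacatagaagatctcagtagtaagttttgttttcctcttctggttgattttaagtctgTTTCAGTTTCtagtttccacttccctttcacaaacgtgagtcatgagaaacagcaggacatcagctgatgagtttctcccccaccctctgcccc
Oas1b: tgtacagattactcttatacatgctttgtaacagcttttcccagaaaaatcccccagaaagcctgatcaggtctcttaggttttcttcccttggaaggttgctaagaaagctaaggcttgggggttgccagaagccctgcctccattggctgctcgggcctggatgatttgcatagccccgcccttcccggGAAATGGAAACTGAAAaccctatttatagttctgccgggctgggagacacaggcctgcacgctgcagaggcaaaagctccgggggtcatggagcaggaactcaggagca
Gbp5: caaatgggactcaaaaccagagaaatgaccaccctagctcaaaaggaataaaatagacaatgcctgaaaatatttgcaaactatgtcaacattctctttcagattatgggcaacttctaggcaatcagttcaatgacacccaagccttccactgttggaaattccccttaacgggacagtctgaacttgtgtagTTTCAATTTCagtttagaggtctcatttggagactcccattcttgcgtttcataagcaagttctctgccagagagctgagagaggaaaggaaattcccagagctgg
In Oas1b a pair of matches overlap and run together. In these 4 the match farthest upstream begins within 69 bases of the start, at positions -69, -44, -59 and -56. Ifi27, which also fell and is not printed, had 2 matches, the first at -169. The same letters occurred in 13 of 18 interferon members with a promoter in the table (72.2%), in 5 of the 6 that fell and had one (83.3%), in 372 of 11845 promoters of genes tested (3.14%) and in 1312 of all 33469 promoters (3.92%). Cmpk2 had no match in this window. A match is a sequence description, not a measured binding site.

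Irf7, the transcription factor that drives interferon production and is itself an interferon target, showed the largest fall in the list among those past the threshold. Its day 1 levels in the 10 mg/m3 study were 77.34, 86.06, 77.29, 94.95 and 109.1 CPM and its day 7 levels 113.2, 69.98, 66.75, 45.33 and 83.11 CPM, so these groups overlapped. Day 1 rats of the 30 mg/m3 study ran from 117.5 to 265.7 CPM (median 163.4) and the day 7 rats from 77.33 to 111.2 CPM (median 96.69), with no overlap. Over both studies its log2 change was -0.64 with an SE of 0.162 (adjusted p = 0.0341, edgeR). The call was lost in 9 of the 22 fits that left out 1 library, with an adjusted p of up to 0.0643. All 11 day 7 rats were below the median of the day 1 rats pooled over both studies. So were all day 1 rats of the 10 mg/m3 study, so this count does not keep the studies apart. The day 7 rat at 113.2 CPM was above every day 1 rat of its own study.

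Ifit2 and Ifit3 encode antiviral proteins of the same family. Ifit2 stood at 92.03, 85.10, 75.43, 101.7 and 115.4 CPM at day 1 and at 86.24, 71.30, 68.26, 66.89 and 86.59 CPM at day 7 in the 10 mg/m3 study. In the other study it ran from 101.5 to 115.0 CPM and then from 66.04 to 87.94 CPM, again without overlap. The log2 change was -0.40 with an SE of 0.0737 (adjusted p = 0.0062) and held in all 22 fits without 1 library. Ifit3 went from a median of 46.33 CPM over the 11 day 1 rats to 31.48 CPM (log2 change -0.59, SE 0.124, adjusted p = 0.0122).

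Other antiviral effectors moved the same way. Mx2, a dynamin-like GTPase, ran from 150.6 to 248.6 CPM (median 187.2) at day 1 and from 80.26 to 175.6 CPM (median 132.3) at day 7, a log2 change of -0.49 (adjusted p = 0.0125). Oas2, a synthetase of the 2-5A messenger that activates RNase L, went from a median of 29.22 to 15.89 CPM (-0.61, adjusted p = 0.0253), and its paralog Oas1b from 21.36 to 15.82 CPM (-0.44, adjusted p = 0.0304). Usp18, which removes ISG15 from proteins and restrains the interferon receptor, ranged from 32.59 to 44.66 CPM at day 1, and 10 of 11 day 7 rats lay below that range (-0.51, adjusted p = 0.0126). Only rat 33 of the day 7 rats lay inside it, at 42.39 CPM. The remaining calls were Cmpk2, Ifi27 and Gbp5, at -0.33, -0.28 and -0.23, and XAF1, spelled in capitals in the count tables and so not matched to the list, also fell (-0.40, adjusted p = 0.00598). XAF1 was looked up after the results were seen. In the 22 fits without 1 library, Gbp5 lost its call in 18, Ifi27 in 11, Oas1b in 2 and Cmpk2 in 1. Mx2, Oas2, Usp18 and XAF1 kept theirs in all 22.

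Some well-known targets did not pass with edgeR. Isg15, the ubiquitin-like modifier, had a log2 change of -0.38 (adjusted p = 0.0548, and 0.0238 with DESeq2 and 0.0382 with limma voom), and Rsad2, the antiviral enzyme viperin, -0.79 (adjusted p = 0.153). Rsad2 varied most, from 34.29 to 1077 CPM among day 1 rats and from 27.54 to 390.1 CPM at day 7. The list's median was -0.205 in the 10 mg/m3 study, with 23 of 28 members below 0, and -0.517 in the 30 mg/m3 study, with 28 of 28. Day 7 values lay wholly below day 1 values for 12 members in the 30 mg/m3 study (0.514% of all genes) and for none in the other (2.20%). No member passed within either study alone with edgeR, where 2.01% and 0.0195% of all genes fell. The test of a difference between studies passed for 0 genes with edgeR (1840 at an unadjusted p under 0.05), 14 with RLE size factors, 167 with DESeq2 and 0 with limma voom. At day 27 the median level was 86.43 CPM for Irf7, 80.18 CPM for Ifit2 and 125.3 CPM for Mx2, close to the day 7 medians of 83.11, 77.97 and 132.3 CPM. The list count was 6 without rats 21 and 37, 5 without rats 54 and 55, 9 without rats 51 and 53, and 5 with the share of mitochondrial ribosomal RNA as a covariate. Rats 54 and 55 had the highest summed interferon levels of the 22, at 3865 and 3550 CPM, and also the highest summed erythroid levels, at 11470 and 10320 CPM. The part of red cell RNA in the interferon result was not tested.

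**Figure D2:**
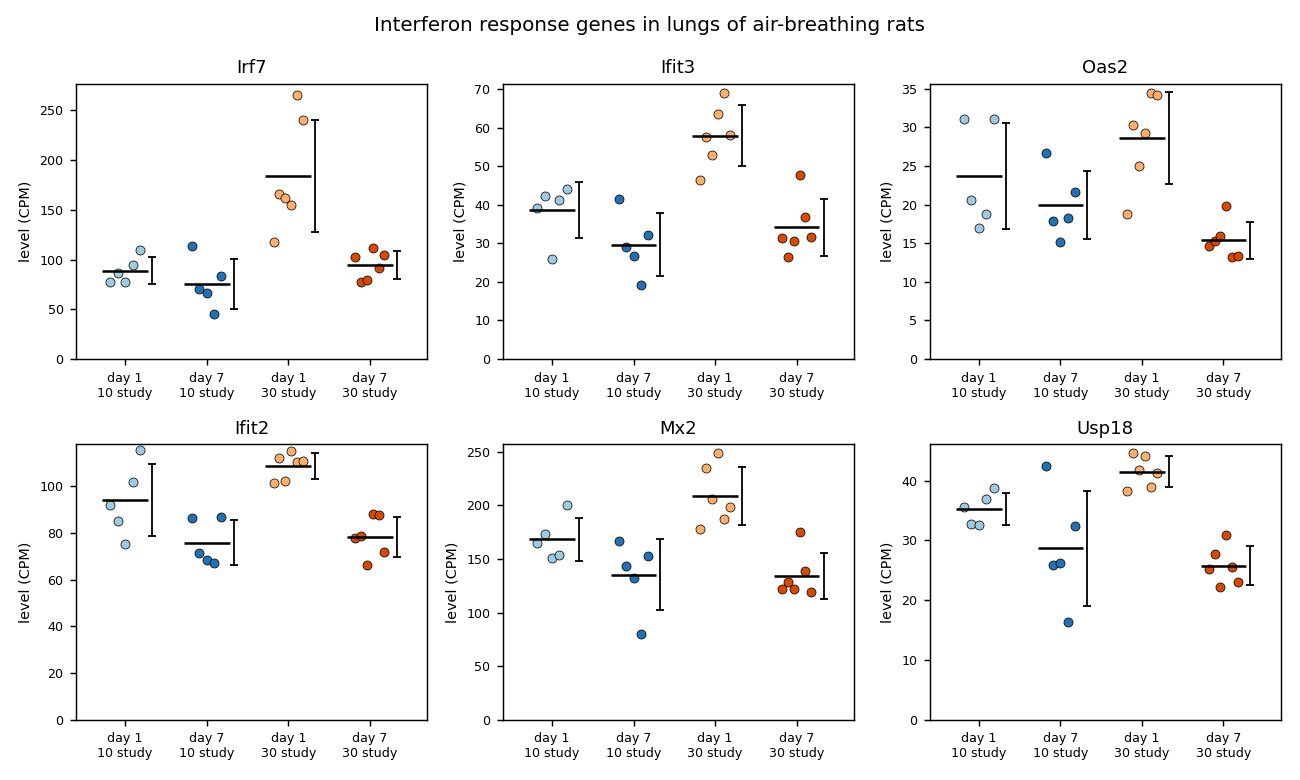
Levels in CPM (linear axes from 0) of 6 interferon response genes in each air rat, by study and day, with the group mean as a line and its SD as an error bar. In the 30 mg/m3 study the day 7 points of Irf7, Ifit2, Mx2 and Usp18 lie below all day 1 points, while in the 10 mg/m3 study the groups overlap.

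Genes that process messenger RNA were higher at day 7. Of 29 RNA-binding and splicing genes tested, 11 rose and none fell (2.11% of all genes rose), 27 were above 0 (48.7% of all genes), and the median was 0.212. The risers included the kinases Clk4 and Clk1, which phosphorylate SR splicing factors, at 0.52 (adjusted p = 0.0138) and 0.42 (adjusted p = 0.0492). They also included the SR proteins Srsf2, Srsf5 and Srsf7 at 0.35, 0.37 and 0.36, their relatives Tra2a and Tra2b at 0.31 and 0.30, the hnRNP proteins Hnrnpdl and Hnrnph1 at 0.35 and 0.31, Pnn at 0.37 and the cold-inducible Cirbp at 0.22. In many of these genes, and in Ccnl2, transcripts that keep introns or a poison exon are common, and gene counts do not separate transcript forms. In the 22 fits without 1 library, Clk1 lost its call in 19, Pnn and Cirbp in 16 each, Tra2a in 10 and Srsf5 in 7. Tra2b and Hnrnph1 lost theirs in 4 each, and Clk4, Srsf2, Srsf7 and Hnrnpdl in none.

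Srsf2 in the 10 mg/m3 study stood at 129.8, 152.5, 166.1, 174.5 and 212.8 CPM at day 1 and at 231.2, 245.9, 230.8, 276.8 and 247.5 CPM at day 7. Within the 30 mg/m3 study it ran from 147.1 to 159.0 CPM and then from 153.2 to 178.3 CPM. All day 7 rats of the 10 mg/m3 study were above all of its day 1 rats, while the other study overlapped. Over both studies Srsf2 rose by 0.35 (SE 0.0738, adjusted p = 0.0125). Ccnl2, cyclin L2, a regulator of splicing outside the list, was among the 12 largest rises at 0.70 (SE 0.0966, adjusted p = 0.00096). It was at 162.2, 102.8, 109.5, 110.5 and 164.9 CPM and then at 213.9, 263.0, 230.5, 268.0 and 247.3 CPM in the 10 mg/m3 study, and at 68.36 to 97.06 CPM and then 109.2 to 123.3 CPM in the 30 mg/m3 study. Ccnl2 thus separated the days in each study, at levels that differed between the studies.

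Within the 10 mg/m3 study 16 members of the list rose (3.75% of all genes did), 18 had no overlap between days (2.74% of all genes) and the median was 0.491. The list's median at 30 mg/m3 was 0.0893, with no member free of overlap on the higher side (0.546% of all genes), 24 of 29 above 0 and none past the threshold (0.013% of all genes rose). Over all 15375 genes, not this list alone, the test of the difference between studies had a smallest adjusted p of 0.0506 with edgeR. The median share of mitochondrial ribosomal RNA was also higher at day 7 in each study. Its share in the 10 mg/m3 study was 0.0961%, 0.1274%, 0.120%, 0.3138% and 3.012% at day 1 and 0.4475%, 0.7332%, 0.9561%, 4.434% and 1.48% at day 7. Rats of the 30 mg/m3 study had 0.1284% to 0.9025% (median 0.435%) and then 0.4585% to 0.8853% (median 0.6528%). Within groups the share and the list did not always go together. Rat 21, with the highest share of its group, also had its highest summed list level, at 6586 CPM. Rat 37, with the highest share of its group, had its lowest, at 7511 CPM. With that share as a covariate 1 of the 29 rose, and 115 of all genes passed. Without rats 21 and 37, the highest in that share, 5 rose, without rats 51 and 53 18 rose, and without rats 54 and 55 7 rose. Its part in the result was not tested.

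**Figure D3:**
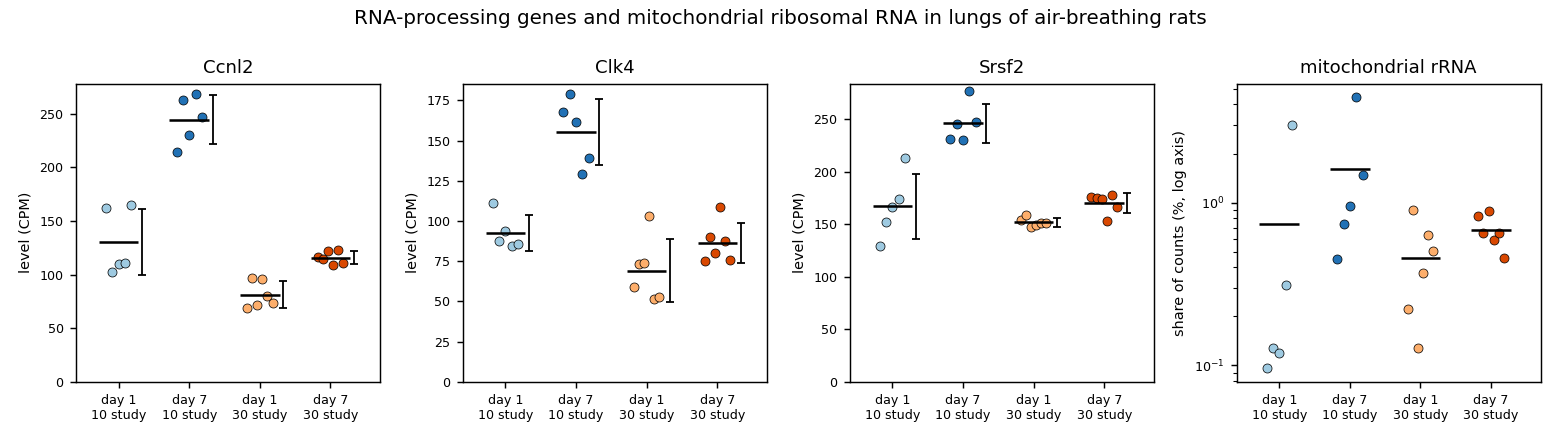
Levels in CPM of Ccnl2, Clk4 and Srsf2 (linear axes from 0; line for the mean, error bar for the SD) and the share of counts from mitochondrial ribosomal RNA in percent (log axis, line for the mean) in each air rat. Day 7 points of the 3 genes lie above day 1 points in the 10 mg/m3 study, as do the ribosomal RNA points except for rat 21 at 3.012%.

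The largest named rises came from genes of low level. Pp2d1, of the protein phosphatase 2C family, had a log2 change of 2.91 (SE 0.79, adjusted p = 0.045), with a median of 0.1235 CPM at day 1 and 2.502 CPM at day 7, and values down to 0 on both days. DESeq2 gave it a log2 change of 3.13 but no adjusted p, and limma voom did not call it (2.08, adjusted p = 0.263). Pcdha8, Pcdhac1 and Pcdha5, adhesion proteins of the alpha protocadherin cluster, rose by 1.39, 0.86 and 0.75. These genes share their last exons, so the counts may be split among them and are uncertain. Of 44 clustered protocadherins tested, 7 rose (2.11% of all genes did) and none fell, a count chosen after the values were seen. Pou5f2, Slmo1, Mss51, Prss53, Eid3 and Sap25 completed the named rises with log2 changes of 0.71 to 1.13. Mss51, a mitochondrial protein of muscle metabolism, had the firmest of these calls (0.73, SE 0.105, adjusted p = 0.0011), from a median of 4.101 to 6.241 CPM.

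Mirlet7a1, the precursor locus of the let-7a microRNA, was also among the 12 largest rises. Its hairpin and mature form are printed because the counts belong to the locus. Capitals mark the mature arm within the hairpin, and the seed, bases 2 to 8, in the mature form (RefSeq).
Mirlet7a1 hairpin: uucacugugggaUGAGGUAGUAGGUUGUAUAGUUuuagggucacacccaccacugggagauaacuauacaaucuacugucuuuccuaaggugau
let-7a-5p: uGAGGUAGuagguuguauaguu
The locus went from a median of 0.6591 CPM (0.2761 to 1.349) to 1.183 CPM (0.7354 to 2.672), a log2 change of 0.91 (SE 0.228, adjusted p = 0.0306, edgeR). All 11 day 7 rats were above the day 1 median of both studies pooled, a count that does not keep the studies apart. A library of long RNA fragments counts the precursor transcript or what overlaps it, so the level is no measure of mature let-7a. DESeq2 gave the locus a log2 change of 0.921 but no adjusted p, and limma voom called it (0.845, adjusted p = 0.0328). The edgeR call was lost in 9 of 22 fits without 1 library.

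Of 17 erythroid genes tested, 1 passed (1.21% of all genes fell). This was Klf1, the transcription factor of red cell precursors, which fell by 1.33 (SE 0.329, adjusted p = 0.0298, edgeR) and lost its call in 6 of the 22 fits without 1 library, with an adjusted p of up to 0.0581. All 17 had a log2 change below 0, with a median of -0.987, and DESeq2 called 4 and limma voom 0. Klf1 was low in the 10 mg/m3 study, at 1.199, 1.177, 0.7408, 0.3512 and 1.319 CPM and then 0.4859, 0.9243, 0.5383, 0.4721 and 0.6729 CPM. Within the 30 mg/m3 study it ran from 4.029 to 32.59 CPM (median 13.55) at day 1 and from 3.764 to 9.039 CPM (median 4.817) at day 7. The rats of the 2 studies thus did not overlap at either day, and day 7 overlapped day 1 within each study. Rats 54 and 55, with 32.59 and 26.50 CPM, were the highest.

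Slc4a1, the anion exchanger band 3 of the red cell membrane, showed the same spread. It was at 340.6 CPM in rat 54, 166.5 CPM in rat 55 and at 29.56 to 78.02 CPM in the other day 1 rats of that study, and at 26.14 to 64.26 CPM at day 7. The log2 change of Slc4a1 was -1.27 (adjusted p = 0.0649). Without rat 54 the change was -1.05 for Klf1, which then lost its call, and -0.83 for Slc4a1. The globin genes, whose RNA in lung comes largely with blood, did not pass. Hba1 had a log2 change of -0.11 (adjusted p = 0.743) and Hbb -0.38 (adjusted p = 0.199). In a piece of tissue, fewer cells of a type and less RNA per cell cannot be told apart. Tmie and Snx22, among the 12 largest falls with Klf1, were also high in a few day 1 rats, with maxima of 11.25 and 8.706 CPM against medians of 1.209 and 1.343 CPM, and their log2 changes went from -1.34 to -1.04 and from -1.21 to -0.90 without rat 54.

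**Figure D4:**
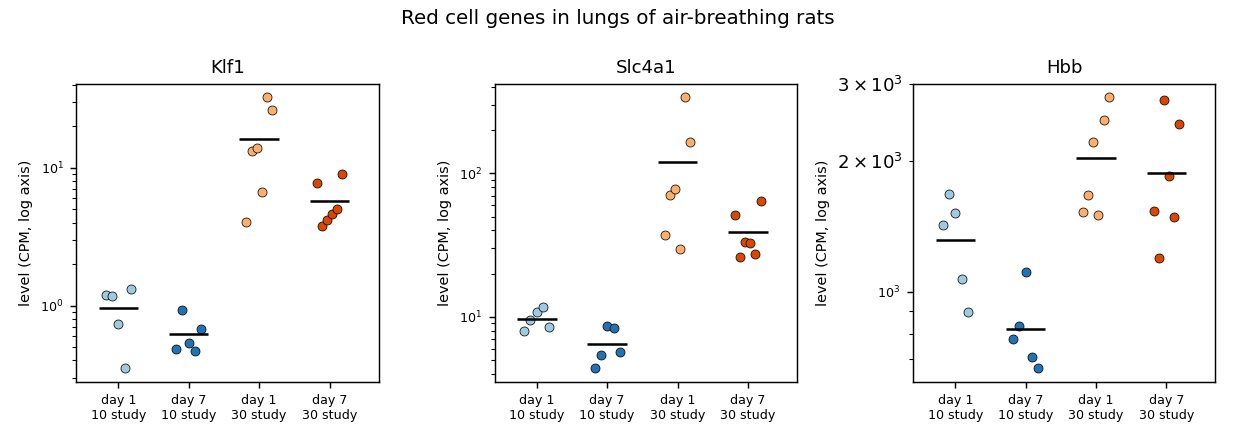
Levels in CPM on log axes of Klf1, Slc4a1 and Hbb in each air rat, with the group mean as a line. Klf1 and Slc4a1 were higher in the 30 mg/m3 study than in the 10 mg/m3 study at both days, and the highest Klf1 and Slc4a1 points are rats 54 and 55 at day 1.

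The remaining largest falls were of mixed kinds. Amtn, amelotin, a protein known from enamel, fell by 0.75 (SE 0.111, adjusted p = 0.00138). In the 10 mg/m3 study it was at 4.797, 5.994, 5.432, 5.152 and 7.001 CPM and then at 4.980, 3.433, 3.984, 2.361 and 3.253 CPM, and in the 30 mg/m3 study at 8.569 to 13.33 CPM and then at 5.136 to 7.262 CPM. All day 7 rats were below the day 1 rats in the 30 mg/m3 study, and the call held in all 22 fits without 1 library. Cenpw, a centromere protein, fell by 0.89 (adjusted p = 0.0168), from a median of 1.977 to 0.9825 CPM. Mylk2, a myosin light chain kinase, Grap2, an adaptor of T cell receptor signalling, Mzb1, a chaperone of plasma cells, and Gch1, the first enzyme of tetrahydrobiopterin synthesis, fell by 0.95, 0.81, 0.68 and 0.67.

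Lipid and antioxidant genes gave a few falls. The share of all genes that fell was 1.21%. Of 23 cholesterol synthesis genes, Fdps, farnesyl diphosphate synthase, and Lss, lanosterol synthase, fell by 0.27 (adjusted p = 0.0451) and 0.44 (adjusted p = 0.0463), and the median of the list was -0.153. DESeq2 called 4 of them lower and limma voom 3, and in the dust lungs 11 fell (3.29% of all genes). Fads1 was the only one of 14 fatty acid synthesis genes to pass. Of 22 NRF2 targets, Gclm, the modifier subunit of glutamate-cysteine ligase, and Txnrd1, thioredoxin reductase, fell by 0.39 (adjusted p = 0.0341) and 0.24 (adjusted p = 0.0412), while DESeq2 called 5 lower and limma voom 3. Plin2, the lipid droplet coat protein, went from 146.9 to 199.8 CPM (median 182.7) to 111.6 to 176.6 CPM (median 148.4), a fall of 0.24 (adjusted p = 0.0303). Of 8 adipose genes tested, Cidec and Cfd fell by 0.53 and 0.43, while the summed level of the list overlapped, at 272.5 to 492.1 CPM on day 1 and 225.1 to 388.5 CPM on day 7. Of Fdps, Lss, Fads1, Gclm, Txnrd1, Plin2, Cidec and Cfd, only Fads1 held its call in all 22 fits without 1 library.

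Genes of growth did not pass. Of 30 mitosis genes none passed, with 26 below 0, a median of -0.148 and 8 at an unadjusted p under 0.05, and of 34 DNA replication genes none passed either (5 at an unadjusted p under 0.05). Of all 15375 genes, 2977 had an unadjusted p under 0.05 in either direction. DESeq2 called 0 mitosis and 1 DNA replication gene, and limma voom 0 of either. Mki67, the proliferation marker, ran from 36.53 to 74.98 CPM (median 55.09) at day 1 and from 33.98 to 57.17 CPM (median 51.63) at day 7, and from 23.90 to 48.74 CPM (median 33.48) at day 27. Its log2 change between day 7 and day 1 was -0.14 (SE 0.0983, adjusted p = 0.47). Tk1, thymidine kinase, had -0.56 (adjusted p = 0.0597) and Ube2c, of the anaphase ubiquitin pathway, -1.02 (adjusted p = 0.0934), both with wide spread at day 1.

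Imprinted and other growth genes, some of them known for high levels in fetal and early postnatal tissue, gave no call among 23 tested with edgeR. Their median was -0.0843, and 6 were lower at an unadjusted p under 0.05 (2977 of all 15375 genes in either direction). Both other tools, DESeq2 and limma voom, called 1. Mest, a hydrolase-like imprinted gene, was at 7.794, 8.777, 8.889, 6.439 and 8.117 CPM and then at 4.130, 6.206, 10.98, 2.833 and 6.393 CPM in the 10 mg/m3 study. The 30 mg/m3 study gave 11.68 to 15.55 CPM and then 6.717 to 13.50 CPM. In all, 10 of 11 day 7 rats were below the day 1 median of both studies pooled. So were all day 1 rats of the 10 mg/m3 study, so this count does not keep the studies apart. The change of -0.47 (SE 0.156) missed the threshold with edgeR (adjusted p = 0.0931) and passed with DESeq2 (adjusted p = 0.0486) and limma voom (adjusted p = 0.0340). Igf2, insulin-like growth factor 2, had -0.37 (SE 0.134, adjusted p = 0.126), from a median of 8.783 to 6.528 CPM. At day 27 the medians were 5.086 CPM for Mest and 7.211 CPM for Igf2.

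No collagen gene of 19 passed with edgeR, DESeq2 or limma voom. With edgeR 10 were below 0 and the median was -0.0015. At an unadjusted p under 0.05, 1 was higher and 1 lower (2977 of all 15375 genes in either direction). Col3a1, the fibrillar collagen of distensible tissue, was at 2506, 3575, 3283, 4202 and 4597 CPM and then at 2478, 2501, 2770, 3229 and 2676 CPM in the 10 mg/m3 study, and from 2387 to 4040 CPM and then 2642 to 3769 CPM in the other. The groups overlapped in both studies, and the log2 change of -0.26 (SE 0.101) did not pass (adjusted p = 0.145). Col1a1 had a log2 change of 0.00 (SE 0.218, adjusted p = 0.998) and Eln, elastin, -0.10 (SE 0.304, adjusted p = 0.894). The standard error of Eln, with day 1 values from 172.5 to 1412 CPM, leaves a change of that size undetectable here.

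Markers of alveolar epithelial and endothelial cells did not pass with edgeR. Sftpc had -0.15 (SE 0.0925, adjusted p = 0.399), Ager -0.16 (SE 0.0812, adjusted p = 0.281) and Pecam1, the endothelial adhesion molecule, -0.15 (SE 0.0760, adjusted p = 0.298). Of 19 alveolar type 2, 17 alveolar type 1 and 22 endothelial genes none passed, with medians of -0.0506, -0.0502 and -0.0106. At an unadjusted p under 0.05 there were 2, 3 and 1 (2977 of all 15375 genes). DESeq2 called 1 alveolar type 1 gene and none of the others, and limma voom none. Among 16 alveolar macrophage and 18 lung fibroblast genes, 1 of each list fell (1.21% of all genes did) and none rose. This was Plin2, a member of both. The medians were -0.191, with 14 of 16 below 0, and -0.011, with 10 of 18 below 0. Of 16 smooth muscle genes, Hhip, an inhibitor of hedgehog signalling, rose by 0.36 (adjusted p = 0.0304), from a median of 95.69 to 126.9 CPM. For Hhip all 11 day 7 rats were above the day 1 median of both studies pooled, a count that does not keep the studies apart. Myh11, smooth muscle myosin, had 0.32 (adjusted p = 0.0656). Of 16 antigen presentation genes, Tap2, the peptide transporter, rose by 0.65 (adjusted p = 0.0385), opposite to the interferon genes of which it is also a target. Cx3cr1, the fractalkine receptor of monocytes, fell by 0.33 (adjusted p = 0.0425), and Klf4, an early response factor of endothelium and monocytes, by 0.32 (SE 0.0570, adjusted p = 0.00598), from 98.08 to 138.3 CPM to 83.07 to 102.6 CPM. In the 22 fits without 1 library, the call was lost in 11 for Hhip, 10 for Tap2, 17 for Cx3cr1 and 0 for Klf4.

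Sets of markers of cardiac muscle, of liver and of the time of day were read as sums and named genes. The 20 cardiac genes in the count tables summed to 112.7 to 1934 CPM at day 1 and 145.1 to 2074 CPM at day 7. Myh6, a cardiac myosin heavy chain, ran from 0 to 337.9 CPM and from 0 to 405 CPM. The median log2 change of the 18 cardiac genes tested was -0.76 at 10 mg/m3 and 1.38 at 30 mg/m3. None passed with edgeR (also 0 at an unadjusted p under 0.05), and none by the other tools. Alb, which liver makes, was at 10.12 to 94.62 CPM and 11.02 to 369.4 CPM, the highest value being rat 65. Of 17 clock genes none passed with edgeR (3 at an unadjusted p under 0.05, against 2977 of all 15375 genes). DESeq2 called 2 and limma voom 1. Dbp had a log2 change of -0.25 (SE 0.250) and Nr1d1 of -0.06 (SE 0.667), both clock genes whose levels swing over the day. The time of killing is not given in the sources used here. The red cell, interferon and RNA-processing changes were read beside these values, and their part in them was not tested, except that with the cardiac level as a covariate 8 interferon genes fell and 11 RNA-processing genes rose.

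**Figure D5:**
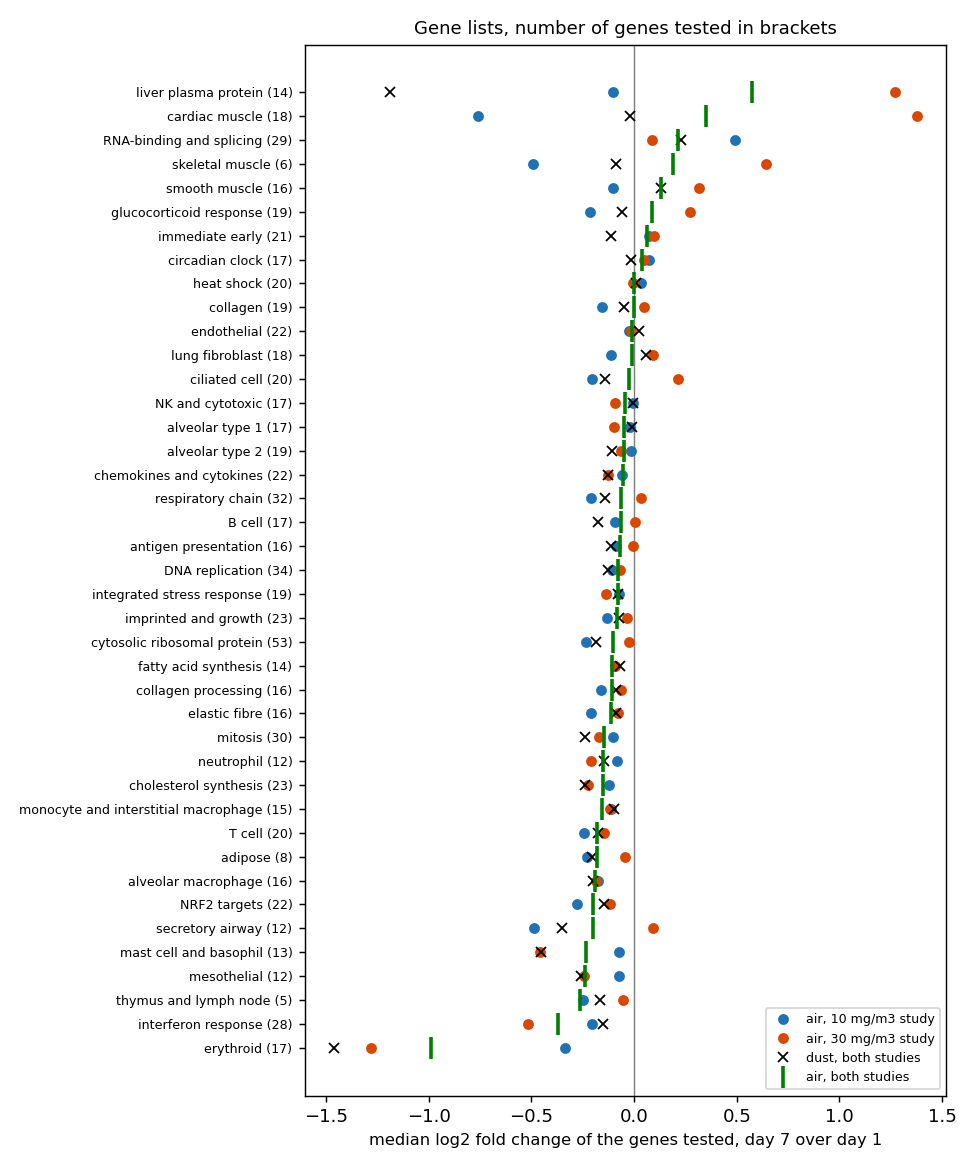
Median log2 fold change of day 7 over day 1 for 41 gene lists, with the number of genes tested in brackets, in the air rats of each study, of both studies and in the dust rats. Interferon response lies at -0.205 and -0.517 in the separate studies, RNA-binding and splicing at 0.491 and 0.0893, and erythroid at -0.338 and -1.28.

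The number of calls differed by study. Fitted within studies, 886 genes passed in the 10 mg/m3 study (5.76%), 577 higher and 309 lower, and 5 in the 30 mg/m3 study (0.0325%), although the latter had the larger groups. The 10 mg/m3 count ran from 314 to 2003 when 1 library was left out, with rat 18 and rat 17 at the extremes, and the 30 mg/m3 count from 3 to 53. The 5 genes of the 30 mg/m3 study, named for their small number after their values were seen, were Lgals9, Il3ra, Amtn, Hist1h4b and LOC102549144. Il3ra, the interleukin-3 receptor chain, ran from 14.14 to 16.78 CPM at day 1 and from 21.60 to 25.15 CPM at day 7 in that study (0.56, SE 0.0839, adjusted p = 0.00419). The 10 mg/m3 study had it at 19.79, 18.30, 22.35, 20.14 and 22.42 CPM and then at 23.08, 21.52, 27.46, 24.55 and 27.37 CPM (0.28, adjusted p = 0.0696). Lgals9, galectin-9, had -0.59 (adjusted p = 0.00419) against -0.03 (adjusted p = 0.881). The test of that difference did not pass (adjusted p = 0.107).

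Dust-exposed rats of the same days gave the same directions for most of these genes. In 22 dust libraries, with 5 and 6 rats per group as for air, 1302 of 15792 genes passed between day 7 and day 1 (8.24%), 782 higher (4.95%) and 520 lower (3.29%). Of the 510 genes called in air, 497 had the same sign in dust, with a median of 0.38 for the 324 risers and -0.215 for the 186 fallers. Air and dust share no libraries but were killed at the same days after exposure. The share of all genes tested with the same sign in air and dust was not counted, so the 497 are a description. The RNA-processing list had 16 risers in dust and a median of 0.229. The erythroid list had 8 fallers and a median of -1.46, with Klf1 at -2.11 (adjusted p = 0.0399). The interferon list had 1 faller and a median of -0.152, with Ifit2 at -0.21 (adjusted p = 0.206) and Mx2 at -0.20 (adjusted p = 0.445). Amtn had -0.10 in dust (adjusted p = 0.74).

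A test of whether the change differed between air and dust passed for no gene (edgeR, 0 of 15792, 441 at an unadjusted p under 0.05, smallest adjusted p 0.397), and DESeq2 called 1. The interferon list's air minus dust change had a median of -0.159, and the test does not show that air and dust lungs changed alike. Retnla, resistin-like alpha, had the largest difference of the 4 genes of smallest p, at 1.04 in air and -1.92 in dust (difference 2.94, SE 0.610, adjusted p = 0.397).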

How the data were processed

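The authors deposited whole-number read counts per gene symbol, 1 table per study and 1 column per library, with no normalisation. Reads were processed with HTSeq 0.6.1, HISAT2 2.1.0, SAMtools 1.8, Trimmomatic 0.35 and bcl2fastq 2.19 on rat build Rnor_6.0, per the submitters' processing notes. No source used here names the annotation or the strand setting, which makes overlapping and antisense genes uncertain. All columns were assigned by the rat number in the titles. Nothing else shows that libraries are separate rats, so p-values measure the spread between these samples.

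Of 30045 symbols, 4264 had 0 counts in all 22 air libraries. The main test was that of edgeR 4.0.16 in R 4.3.3 (TMM scaling, filterByExpr with a minimum count of 10 and minimum total of 15, quasi-likelihood F test, robust, Benjamini-Hochberg threshold 0.05), with study as a block. The fit gave a biological coefficient of variation of 17.41%. The separate studies and their difference were tested in 1 fit with a mean per study and day, and air against dust in a fit of 44 libraries. Levels are CPM scaled with TMM factors over all 64 libraries, and log2 fold changes are edgeR's. Pairs of libraries of a group differed beyond counting noise (chi-square over its degrees of freedom 3 or more), so none was a repeat count of another library. The lowest value, 3, was that of rats 54 and 55. Such a value cannot show that a pair of libraries came from different lungs. Depth limits genes of few counts, and counting intervals are not given because replicates carry the error.

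The genes compared, the 41 lists and the tests were chosen with earlier results of these data known, so no list test was made and lists are described by counts and medians. Named genes were a fixed panel of 20, the 12 largest rises and 12 largest falls past the threshold with at least 1 CPM on average and a symbol that is no locus code, up to 4 members of each list, and the 4 of smallest p in the tests between studies and of air against dust, not all of them reported here. All other genes named, the further members of the interferon, RNA-processing and other lists included, were chosen after their values were seen. DESeq2 1.42.0, limma 3.58.1 voom, other filters and scaling, covariates and fits without libraries were tried as alternatives. The fits were tested on simulated counts. Promoter and miRNA sequences came from RefSeq tables, and 19073 symbols matched RefSeq names.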

Additional observations from a re-analysis of the deposited data

Results flagged for a closer look

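In 64 checks of 4 groups of air rats, over 8 library measures and 8 genes, 6 values lay far from the rest of their group, where chance alone gives about 1 in 20. In the 10 mg/m3 study, mitochondrial ribosomal RNA took 3.012% of the counts of rat 21 at day 1, against 0.3138% in the next rat, and 4.434% in rat 37 at day 7, against 1.48%. In the same study the summed level of the cardiac muscle genes was 1934 CPM in rat 20 at day 1, against 358.7 CPM in the next, and 1358 CPM in rat 37 at day 7, against 165.7 CPM. The summed level of liver plasma protein genes was 582.3 CPM in rat 18 at day 1 of the 10 mg/m3 study, against 467.7 CPM in the next, and 1041 CPM in rat 65 at day 7 of the 30 mg/m3 study, against 460.9 CPM.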

How the results depend on the processing

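Of 510 genes called over both studies (324 higher, 186 lower, 10 interferon genes lower and 11 RNA-processing genes higher), all kept their direction in every alternative run that tested them. At a minimum count of 30, 35 were not tested, and 1 was not tested in each fit without rat 51, 53, 54 or 55. The number past the threshold did depend on the setting, and the cause was not tested. Without a filter on low counts, where 25781 genes were tested, 312 genes passed, 91 of them lower. DESeq2 called 921 (533 higher, 388 lower, 16 interferon genes) and limma voom called 538 higher. With no study term 3 passed, 0 higher and 3 lower, with 0 interferon and 0 RNA-processing genes. The fit of all 64 libraries gave 1199 (749 higher, 450 lower, 5 interferon, 17 RNA-processing genes), of which 450 were among the 510. A covariate for the mitochondrial ribosomal RNA share left 115 (66 and 49, with 5 and 1 of the list genes), of which 94 were among the 510. The number of genes detected as a covariate gave 1032 (645 and 387). Without rats 51 and 53 there were 1252 (815 and 437, with 18 RNA-processing genes). Alternatives chosen after seeing the data gave 232 (146 and 86, with 6 and 5 list genes) without rats 21 and 37, 215 genes higher without rat 65, and 5 interferon and 7 RNA-processing genes without rats 54 and 55.

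Leaving out 1 library gave 218 to 1075 genes (135 to 742 higher and 77 to 333 lower), 6 to 13 interferon genes and 4 to 16 RNA-processing genes. Fewer than 340 passed without rats 18, 19, 20, 34, 37, 39, 52, 55, 66 or 70, and more than 765 without rats 17 or 53. Of 71 named genes past the threshold, 32 stayed past it in all 22 of these fits, including 5 interferon and 4 RNA-processing list members. Some of the 32, Leng8, Snrnp70, Pnisr, Srek1 and Son included, were chosen from the genes that passed in all 22. Their staying was thus fixed beforehand. No paired analysis was possible because every rat has a number of its own and none is shared between groups.

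In the 10 mg/m3 study the count of 886 was 564 without a filter and 316 with its 2 groups alone, and 314 to 2003 without 1 library. In the 30 mg/m3 study the count of 5 was 114 with DESeq2, 16 with limma voom, 17 with its 2 groups alone, and 3 to 53 without 1 library. The study by day difference, 0 genes, gave 14 with RLE size factors and 167 with DESeq2, and the difference between air and dust gave 1 with DESeq2.

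Signs turned for 7 genes that did not pass. Col1a1 was 0.00946 at a minimum count of 30, 0.0367 with limma voom, 0.0104 with no study term, 0.0743 without rat 21, 0.106 without rats 54 and 55, and -0.103 to 0.135 without 1 library. Eln was 0.0589 with limma voom, 0.109 without rat 21, 0.028 without rats 21 and 37, 0.143 without rats 54 and 55, and -0.199 to 0.109 without 1 library. Nr1d1 was 0.061 in the fit of all 64, 0.247 with the cardiac covariate, 0.0744 without rat 65, 1.09 without rats 54 and 55, and -0.481 to 0.283 without 1 library. With the ribosomal RNA covariate Arntl was 0.073 and Per3 -0.0908, and without 1 library they ran from -0.0737 to 0.016 and from -0.0239 to 0.183. Myh6 was -0.111 with the cardiac covariate, -0.145 without rats 21 and 37, and -0.112 to 1.94 without 1 library. Dbp was 0.146 without rats 54 and 55.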

Other observations

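Among the 190 genes that passed in all 22 fits without 1 library, several outside the lists were chosen after their values were seen. Leng8, Snrnp70 (the U1 snRNP protein), Pnisr, Srek1 and Son, which act in or near the splicing machinery, rose by 0.60, 0.56, 0.55, 0.52 and 0.37 on the log2 scale (adjusted p = 0.00613, 0.0120, 0.0114, 0.0104 and 0.0062, edgeR). In each, the change was larger in the 10 mg/m3 study than in the 30 mg/m3 study. That difference passed for 0 genes with edgeR, and DESeq2 called 167 genes in all. With a covariate for the mitochondrial ribosomal RNA share, 50 of 71 named genes past the threshold lost it.

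Eif2ak2, the kinase PKR, Trex1, a DNA exonuclease, and Ube2l6, a conjugating enzyme for ISG15, all known interferon targets outside the list, fell by 0.34, 0.42 and 0.43 (adjusted p = 0.0194, 0.00991 and 0.0115, edgeR). Ube2l6 ran from 18.74 to 34.52 CPM at day 1 and from 12.59 to 24.58 CPM at day 7. The lysosomal genes Ctsb, Hexa and Scarb2 fell by 0.30, 0.27 and 0.22 (adjusted p = 0.00598, 0.0126 and 0.0200, edgeR). Ctsb, cathepsin B, went from a median of 822.4 CPM to 692.6 CPM, and in dust lungs its change was -0.30 (adjusted p = 0.00473).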
